A study of Anoectochilus roxburghii with 9 samples.

Results

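In leaves of Anoectochilus roxburghii, a small medicinal orchid, 66 of 85512 assembled genes were lower when the transcription factor ArPHR2 was overexpressed while staying near the control level when its relative ArPHR4 was. The libraries form 3 groups of 3, all from wild-type leaves taken 3 days after a transient overexpression treatment. The first group received ArPHR2, the second ArPHR4, and the control group an empty vector (EV), so the treatment itself was common to all of them. The study's list of sample names has ArPHR2-YFP, ArPHR4-YFP and PHB-YFP, YFP being a yellow fluorescent reporter protein; it does not say that PHB-YFP is the empty vector, and that reading is open to doubt. The promoter, the share of leaf cells that took up a construct, and the number of plants behind each group are not described in the sources used here. Any p-value below is therefore set against the spread among these libraries, part of which may be technical.

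PHR proteins belong to a MYB family of DNA-binding regulators, and in Arabidopsis and rice they control much of the response to phosphate shortage. They bind a short element called P1BS in the promoters of their targets, and SPX-domain proteins hold them back when phosphate is plentiful. In those species their targets include phosphate transporters, acid phosphatases and genes of lipid remodelling, and they are known chiefly as activators. The design asked how leaf expression differed between each overexpression group and EV.

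The members were chosen from the counts themselves. Each count was divided by its library total to give CPM (counts scaled to a common library total) and averaged over the 3 libraries of a group. A member had at least 5 and under 1000 CPM in EV, an ArPHR4/EV ratio between 0.8 and the inverse of 0.8 (the near-EV range), and means at least 1.5-fold lower in ArPHR2 than in EV and than in ArPHR4, a ratio of at most 0.667. All 3 contrasts of the counts went into this choice, so the levels and ratios of the members are a description and no test is read from them. The working name of the set, repressed by ArPHR2 but not ArPHR4, describes the rule only loosely, because 14 of the 66 were also called lower in ArPHR4 than in EV, within the near-EV range that the rule allows (given in full below). The genes carry assembly IDs of the form TRINITY_DN10417_c1_g1, which the files used here pair with no name, function or genome position. The transcripts of ArPHR2 and ArPHR4, the markers of leaf tissue and the known phosphate-response genes were therefore not looked up.

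Library totals were 16529182 to 17244083 counts for ArPHR2, 16032716 to 16757000 for ArPHR4 and 16488391 to 16547194 for EV. The TMM factors, which correct a library size for the make-up of its RNA, were 0.994 to 1.02 in ArPHR2, 1.03 in each ArPHR4 library and 0.953 to 0.973 in EV. They moved the median log2 ratio over the 13686 genes within the EV level limits by -0.099 for ArPHR4 against EV and by -0.069 for ArPHR2 against EV, and upper-quartile scaling moved it by -0.16 and -0.081. Members had between 20 and 12047 counts in any single library. In whole leaves, fewer cells of a type and less RNA per cell cannot be told apart.

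The set is a small corner of the genes that were lower with ArPHR2. Of the 13686 genes within the EV level limits, 1227 (8.97%) had an ArPHR2/EV ratio of at most 0.667. Among these, 911 (74.2%) had an ArPHR4/EV ratio just as low, 175 (14.3%) lay between 0.667 and 0.8, 120 (9.78%) lay in the near-EV range and 21 (1.71%) were above it. The further demand on ArPHR2/ArPHR4 left the 66 members, 5.38% of these 1227 genes. The mirror rule, lower with ArPHR4 and near EV with ArPHR2, gave 167 genes. The corresponding upward rules gave 82 genes for ArPHR2 and 222 for ArPHR4. These 4 counts share the same EV libraries and were not tested against each other.

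**Figure D1:**
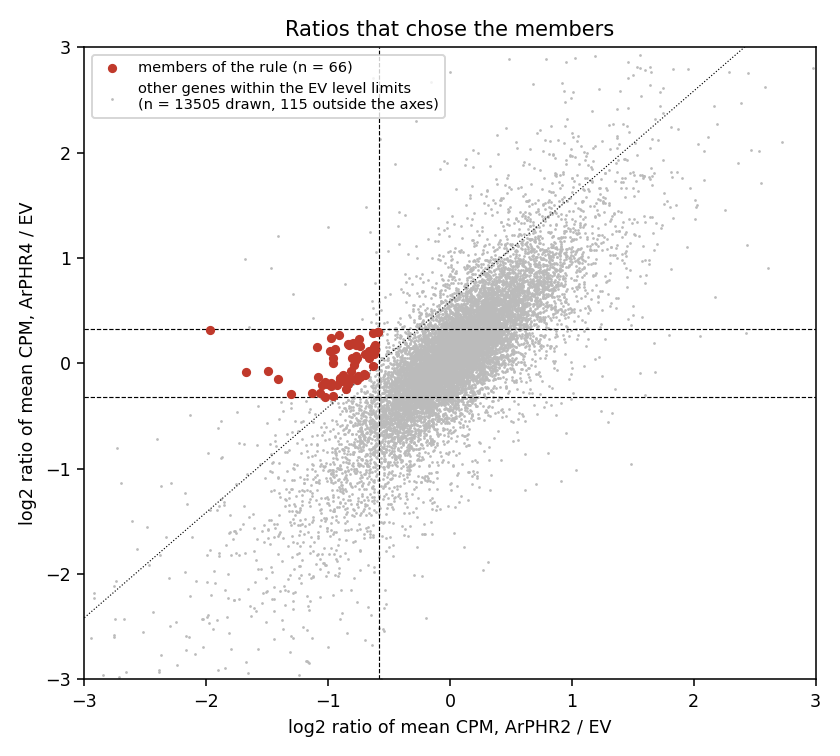
Each point is 1 gene with an EV level of at least 5 and under 1000 CPM; the x axis is the log2 ratio of mean CPM in ArPHR2 to EV, the y axis that of ArPHR4 to EV, and red marks the 66 members. Dashed lines are the limit of 0.667 on x and the near-EV range on y, the dotted line is an ArPHR2/ArPHR4 ratio of 0.667, and 115 of the other genes lie outside the axes.

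As a group the members took a much smaller share of the ArPHR2 libraries than of the others. Their summed level was 1819, 1856 and 1822 CPM in the ArPHR2 libraries, against 3623, 3627 and 3658 CPM in the ArPHR4 libraries and 3480, 3521 and 3507 CPM in the EV libraries. The ArPHR2 libraries lay far below both other groups, and the ArPHR4 libraries lay slightly above EV on this scale. The 5 most abundant members made up 53.0% of the EV sum. Without them the sum was 925 ± 14.3 CPM in ArPHR2, 1631 ± 10.2 CPM in ArPHR4 and 1648 ± 5.05 CPM in EV (SD, n = 3 each), so that the ArPHR4 sum was then below the EV sum.

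Most members had a similar depth of decrease, but the rule capped the ArPHR2/EV ratio from above. How close their ratios lie is therefore partly set by the choice and is not read as a trait of the members. The ArPHR2/EV ratio ran from 0.255 to 0.665, with a median of 0.565 and quartiles of 0.511 and 0.610, against a median of 1.01 over all genes within the level limits. The ArPHR2/ArPHR4 ratio ran from 0.205 to 0.664 with a median of 0.579, against 0.970 over all. The ArPHR4/EV ratio ran from 0.802 to 1.24 with a median of 0.995, against 1.04 over all. In 13 members the ArPHR2 mean was at least 2-fold below the EV mean, and in 6 it was at least 2-fold below both other means.

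Every ArPHR2 library was below every EV library in 66 of 66 members, against 32.2% of the genes within the level limits. It was below every library of both other groups in 63, against 10.5%. The rule used these contrasts, so nothing is read from the difference. In the 3 remaining members, all under 10 CPM in EV, 1 or more ArPHR2 libraries reached into the ArPHR4 range.

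**Figure D2:**
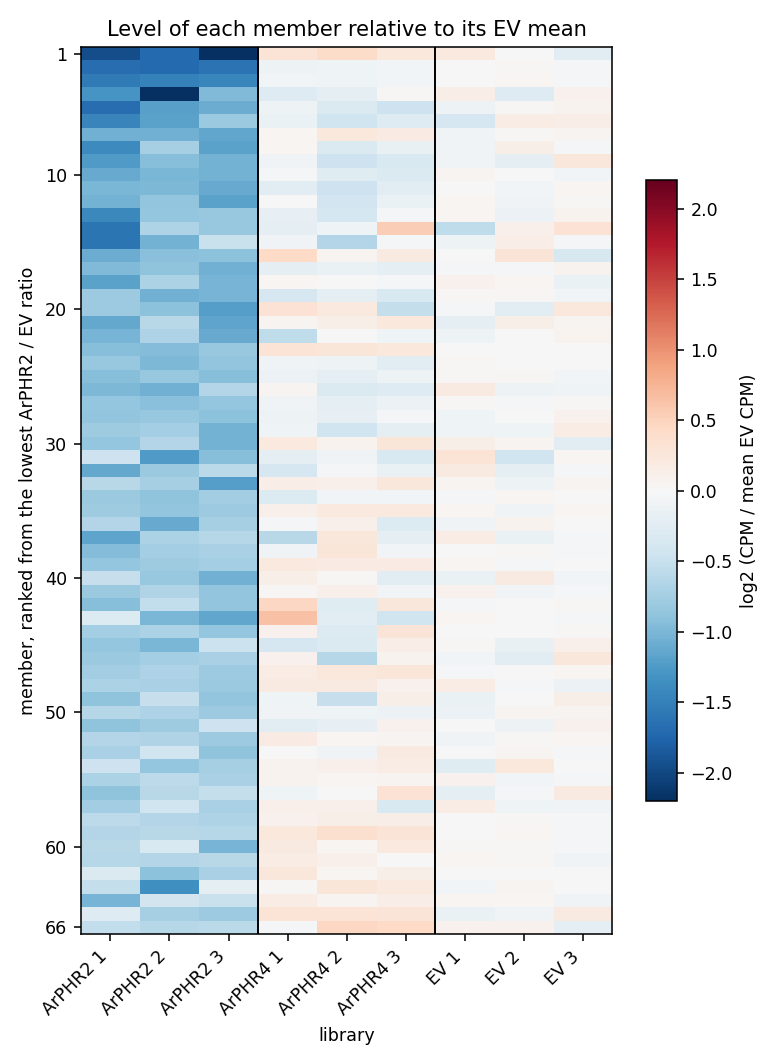
Rows are the 66 members ranked by ArPHR2/EV ratio, columns are the 9 libraries, and the colour is log2 of CPM over the member's mean EV CPM. The ArPHR2 columns are blue throughout while the ArPHR4 and EV columns scatter around 0, with more scatter between libraries in some rows than in others.

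Read in CPM, the 5 members most abundant in EV showed the pattern with little spread. The first had 361, 381 and 352 CPM in ArPHR2, 686, 719 and 737 CPM in ArPHR4, and 590, 612 and 629 CPM in EV. It was 1.67-fold lower in ArPHR2 than in EV, and its ArPHR4 libraries all lay above its EV libraries, at a ratio of 1.17. The second had 171, 178 and 185 CPM in ArPHR2, 482, 472 and 479 CPM in ArPHR4, and 497, 515 and 493 CPM in EV. With a 2.81-fold lower mean than in EV it also ranked 3 by depth of decrease, and its ArPHR4 libraries lay just below its EV libraries.

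The third had 171, 169 and 183 CPM in ArPHR2, 402, 393 and 386 CPM in ArPHR4, and 326, 329 and 328 CPM in EV. Here ArPHR4 and EV did not overlap either, with ArPHR4 at 1.2 times EV. The fourth had 73.0, 71.4 and 75.8 CPM in ArPHR2, 217, 221 and 225 CPM in ArPHR4, and 236, 238 and 229 CPM in EV. It was 3.20-fold lower in ArPHR2 than in EV, the second-deepest decrease of the set. The fifth averaged 117 ± 4.08 CPM in ArPHR2, 198 ± 3.83 CPM in ArPHR4 and 181 ± 4.21 CPM in EV (SD, n = 3 each), 1.55-fold lower in ArPHR2 than in EV.

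CPM does not correct for gene length, so levels of different genes are set side by side in the deposited FPKM (fragments scaled to transcript length and library depth). On that scale the second member by CPM was the highest in EV, with 211 ± 9.06 FPKM in ArPHR2, 573 ± 5.75 FPKM in ArPHR4 and 612 ± 18.4 FPKM in EV (SD, n = 3 each). The first by CPM came next in EV, with 258 ± 7.23 FPKM in ArPHR2, 541 ± 23.8 FPKM in ArPHR4 and 409 ± 7.53 FPKM in EV. The order of these 2 members was thus opposite in ArPHR2 and in EV, by more than the SDs given. The median member had an EV level of 18.4 FPKM, against 25.8 FPKM over all genes within the level limits. It was 24.6 FPKM in the mirror set lower with ArPHR4, 24.1 FPKM in the set higher with ArPHR2 and 13.3 FPKM in the set higher with ArPHR4.

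**Figure D3:**
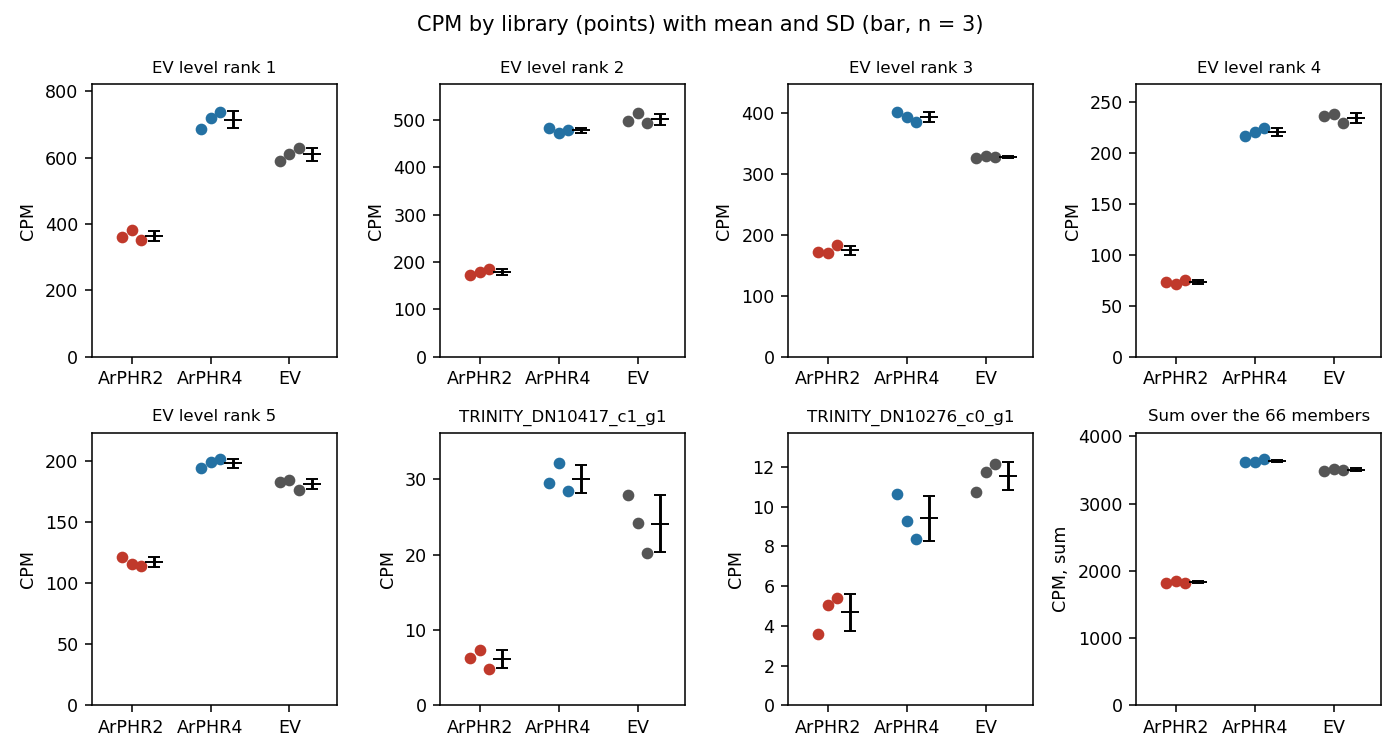
Points are CPM in each library for the 5 members most abundant in EV, for the 2 members named by ID and for the sum over all 66 members; bars beside the points are mean and SD (n = 3), and each y axis starts at 0. In all 8 panels the ArPHR2 libraries lie below all ArPHR4 and EV libraries.

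The deepest decreases fell on members of very different abundance. Lowest by ArPHR2/EV ratio was TRINITY_DN10417_c1_g1, with 6.26, 7.34 and 4.84 CPM in ArPHR2, 29.5, 32.1 and 28.4 CPM in ArPHR4, and 27.9, 24.2 and 20.3 CPM in EV. It was 3.92-fold lower in ArPHR2 than in EV and 4.88-fold lower than in ArPHR4, where all 3 libraries lay above the EV libraries. Its ArPHR4/EV ratio of 1.24 is also the closest of all members to the upper limit of the rule.

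The fourth by ratio was a scarce gene with 2.32, 1.18 and 2.90 CPM in ArPHR2, 4.64, 4.95 and 5.80 CPM in ArPHR4, and 6.31, 4.65 and 6.06 CPM in EV. Its ArPHR2 values rest on 40, 20 and 48 counts and had the widest spread within ArPHR2 of any member, a coefficient of variation (CV) of 40.9%. The fifth was TRINITY_DN10276_c0_g1, with 3.60, 5.03 and 5.38 CPM in ArPHR2, 10.6, 9.25 and 8.36 CPM in ArPHR4, and 10.7, 11.7 and 12.1 CPM in EV. It was 2.47-fold lower in ArPHR2 than in EV, and its ArPHR4 mean was 0.816 of the EV mean, with every ArPHR4 library below every EV library. The smallest spread within ArPHR2, a CV of 1.26%, belonged to a member at 41.0, 42.0 and 41.7 CPM in ArPHR2, 78.7 ± 3.52 CPM in ArPHR4 and 64.3 ± 1.93 CPM in EV (SD, n = 3 each).

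The members were less abundant than most genes eligible for the rule, and their libraries spread more. Their median EV level was 15.4 CPM, against 29.6 CPM over all genes within the limits, and 24 members had under 10 CPM in EV while 8 had over 100. The median was 13.9 CPM in the mirror set lower with ArPHR4, 20.5 CPM in the set higher with ArPHR2 and 14.8 CPM in the set higher with ArPHR4. A low level in CPM was thus not particular to the members. The median CV within ArPHR2 was 12.7% over the members and 6.11% over all. Within ArPHR4 it was 8.76% against 5.91%, and within EV 6.31% against 5.41%. Counting error alone gives a median CV of 8.26% for the members in ArPHR2 and 4.35% for all genes there. Taken per gene as a multiple of that counting error, the CV within ArPHR2 was 1.55 in the median over members and 1.47 over all.

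Split by abundance, the wider spread lay in the scarce members. Values for all genes split in this way are not given here. The 29 members with at least 20 CPM in EV had a median CV of 4.36% in ArPHR2, 4.47% in ArPHR4 and 4.32% in EV. The 37 members under 20 CPM had 16.8%, 13.6% and 10.4% in the same groups. The median ArPHR2/EV ratio was 0.546 in the abundant and 0.568 in the scarce members.

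Membership near the limits turned on small differences. Just inside the ArPHR2/EV limit lay genes at 0.665 and 0.664, and just outside lay genes at 0.667 and 0.668 that met every other limit. On ArPHR2/ArPHR4 the nearest members were at 0.664 and 0.659, and the nearest genes outside at 0.670 and 0.671. The lower ArPHR4/EV limit had members at 0.802 and 0.809 and outside genes at 0.795 and 0.781, and the upper limit members at 1.24 and 1.23 and outside genes at 1.27 and 1.28. In all, 48 genes missed the ArPHR2/EV limit alone, 54 the ArPHR2/ArPHR4 limit alone, 63 the lower and 21 the upper ArPHR4/EV limit alone. The EV level limits had members at 5.03 and 5.09 CPM and outside genes at 4.91 and 4.77 CPM. Under 5 CPM in EV, 1819 genes met all the ratio limits, far more than missed any other limit alone. With the limit at 1 CPM the rule gave 235 genes, so most of the 1819 lay under 1 CPM in EV, where ratios rest on few counts. Above 1000 CPM, 1 gene met all the ratio limits, with 3659 CPM in EV, an ArPHR2/EV ratio of 0.592 and an ArPHR4/EV ratio of 0.895.

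Because the choice used all libraries, each was also left out of it in turn and then read on its own. The left-out library did not help to choose the genes, but for ArPHR2 and ArPHR4 libraries the EV mean it is set against did, so the ratios are not independent of the choice and are given as a description. Without the first ArPHR2 library the rule chose 68 genes, all of which were below the EV mean in that library, at a median ratio of 0.579, and 48 of which were at or under the limit of 0.667. Without the second it chose 76 genes, again all below the EV mean, at a median of 0.617, with 51 at or under the limit. Without the third it chose 65 genes, of which 64 were below the EV mean, at a median of 0.564, with 53 at or under the limit. Of all genes within the EV level limits, 48.4%, 47.5% and 50.1% were below the EV mean in these 3 libraries, and 9.45%, 9.40% and 9.98% were at or under 0.667.

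The closeness of ArPHR4 to EV was read in the same way. In the left-out ArPHR4 libraries the median ratio to the EV mean was 1.01, 0.945 and 0.965. Within the near-EV range lay 48 of 57, 50 of 68 and 50 of 61 genes, against 47.6%, 48.0% and 48.1% of all genes within the level limits, and single genes reached 0.496 and 1.52. With an EV library left out instead, 51 of 63, 56 of 63 and 53 of 69 genes had an ArPHR4 mean in the near-EV range of that library. Over all genes within the level limits the shares were 47.82%, 47.87% and 48.05%. The ArPHR4 mean set against the left-out EV library had itself taken part in the choice, so these counts are also a description. Of the 66 members, 33 were chosen in all 9 of these repeats.

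**Figure D4:**
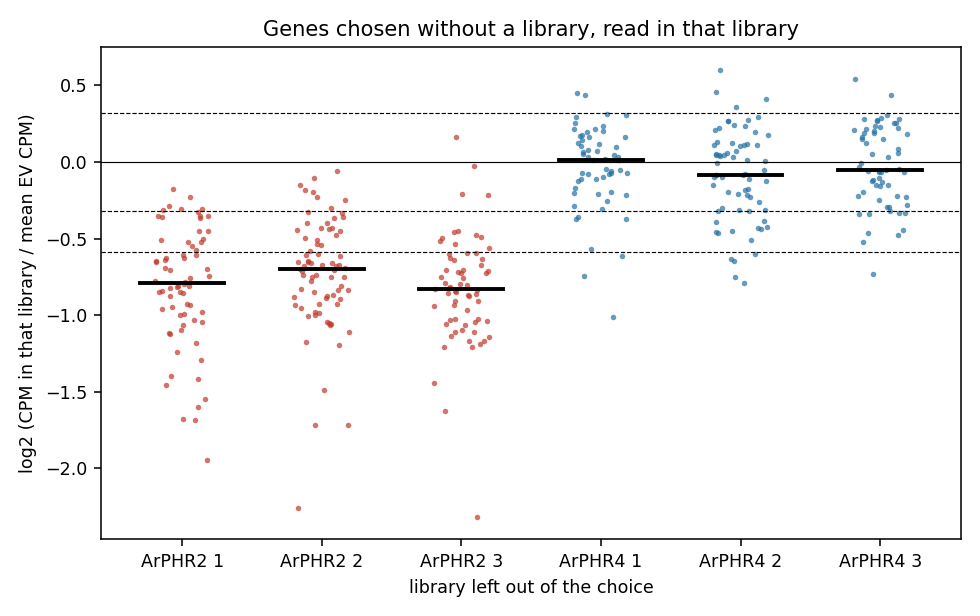
For each ArPHR2 and ArPHR4 library, points are the genes chosen by the rule without that library, at log2 of their CPM in it over the mean EV CPM, and black bars are medians. Dashed lines mark 0.667 and the near-EV range; the ArPHR2 medians of 0.579, 0.617 and 0.564 lie under the lowest line, and the ArPHR4 medians of 1.01, 0.945 and 0.965 lie between the upper 2.

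A fit over all 27275 genes with enough counts showed how far near EV in the rule differs from no call (edgeR quasi-likelihood test, adjusted p under 0.05). For ArPHR2, 66 of 66 members were called lower than EV, against a background of 21.7% of all genes, and 66 were called lower than ArPHR4, against 16.3%. The rule used both contrasts and nothing is read from these counts. For ArPHR4 against EV, 14 members were called lower, against a background of 25.9%, and 3 were called higher, against 26.1%. The rule capped this contrast as well. The called members had ArPHR4/EV ratios of 0.802 to 0.953 where lower and of 1.17 to 1.22 where higher, in plain CPM. The other 49 members had ratios of 0.822 to 1.24, so the ratios of called and other members overlapped. The called members had a median EV level of 64.3 CPM, against 10.3 CPM for those without a call, and a missing call does not show equal levels.

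The direction of the ArPHR4 difference depends on the scaling. In plain CPM, 33 members were above and 33 below EV in ArPHR4. With TMM-scaled library sizes 22 were above and 44 below, and the median log2 ratio over the members went to -0.11, against -0.007 in plain CPM and -0.17 with upper-quartile scaling. The medians over all genes within the level limits were -0.039 with TMM, 0.060 in plain CPM and -0.098 with upper-quartile scaling. Scaling moves all genes nearly alike, so the members' median less that of all genes stayed at -0.067 or -0.068 by construction. The near-EV range of the rule, set in plain CPM, also bounded the members' median. The median ratio of ArPHR2 to EV was -0.82 in plain CPM, -0.89 with TMM and -0.91 with upper-quartile scaling, on the log2 scale. In plain CPM every ArPHR4 library lay below every EV library in 11 members, against 31.5% of genes within the limits, and above in 12, against 40.1%, and in 43 members the groups overlapped.

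The rule did not use FPKM, and count over FPKM gives each gene an implied length in each library, which moves when the transcripts counted under 1 ID change their shares or when the authors' estimate of their effective lengths does. The count in this measure is the count that chose the members, so the measure is not independent of the choice. Bases are scaled here by the total of the deposited counts, so they are approximate. The median implied length of the members was 1165 bases (266 to 3893), against 1233 bases over all genes within the level limits. Of the 66 members, 63 passed a filter on mean count and mean FPKM for the test of a shift (limma on log2 of count over FPKM, adjusted p under 0.05). For ArPHR2 against EV, 15 of 63 were called (23.8%), 9 longer and 6 shorter, against a background of 24.5% of 15680 genes. Under this filter the members were thus called about as often as genes in general, which did not hold under a stricter one (below). A shift of at least 1.5-fold was called in 1 of 63 (1.59%), against 0.574% of all. For ArPHR4 against EV, 16 of 63 were called (25.4%), 9 longer and 7 shorter, against a background of 20.7%, and 2 of 63 (3.17%) were called at 1.5-fold or more, against 1.09%. These counts and their balance depend on how libraries are centred. With library medians set equal, 25 members were called for ArPHR2 against EV (39.7%), 20 longer and 5 shorter, against 36.2% of all genes, with 78.6% of the calls longer. For ArPHR4 against EV it was then 32 members (50.8%), 25 longer and 7 shorter, against 50.7% of all genes, with 79.9% of the calls longer. A stricter filter, with the first centring, asked for a mean count of at least 200 and a mean FPKM of at least 5. It left 36 members, of which 15 (41.7%) were called for ArPHR2 against EV, against 30.4% of all genes passing it. For ArPHR4 against EV 14 (38.9%) were called, against 29.9%. These differences were not tested.

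Between ArPHR2 and ArPHR4, 6 of 63 members were called (9.52%), 3 longer and 3 shorter in ArPHR2, against a background of 1.95%. Among genes at least 1.5-fold lower in ArPHR2 than in ArPHR4 that were not members, a set looked at after this count was seen, 26 of 742 were called (3.50%). None of the 6 shifts was called at 1.5-fold or more (background 0.051%). Under the stricter filter 6 of 36 members were called (16.7%), against 3.64% of all genes passing it. With the library number as a block 1 member was called (1.59%), against 0.606% of all genes, and with any 1 library left out 3 to 5 members (4.69% to 7.94%), against 0.754% to 1.5%. The difference from the background was not tested, and the counts in this measure also chose the members.

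The largest of these shifts were in opposite directions. The member ranked 45 by EV level had implied lengths of 2182, 2107 and 2410 bases in ArPHR2, 1588, 1780 and 1700 bases in ArPHR4, and 2159, 2216 and 2292 bases in EV. ArPHR4 stood alone in this gene, with a log2 shift of 0.38 ± 0.063 for ArPHR2 against ArPHR4 (SE, limma adjusted p = 0.036). This call was lost whichever 1 of the 9 libraries was left out (adjusted p = 0.0625 to 0.0953) and with the replicate block (adjusted p = 0.0648). The member ranked 14 had 1616, 1468 and 1471 bases in ArPHR2, 1865, 1944 and 1920 bases in ArPHR4, and 1194, 1170 and 1200 bases in EV. Here the groups formed 3 separate levels with ArPHR2 in the middle, with a log2 shift of -0.35 ± 0.036 for ArPHR2 against ArPHR4 (SE, limma adjusted p = 0.0097), a call lost with the replicate block (adjusted p = 0.0527). The smallest adjusted p belonged to the third most abundant member, with 2053 bases in ArPHR2, 1708 bases in ArPHR4 and 2157 bases in EV on average (log2 shift 0.24 ± 0.011, SE, limma adjusted p = 0.00078).

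Against EV, the member ranked 29 by EV level had the largest shift in both overexpression groups. Its implied length was 2510, 1076 and 2374 bases in ArPHR2, 2287, 2538 and 2418 bases in ArPHR4, and 612, 422 and 1027 bases in EV. The second ArPHR2 library lay near the third EV library and away from its own group. The log2 shift was 1.5 ± 0.41 for ArPHR2 against EV (SE, limma adjusted p = 0.039) and 1.90 ± 0.41 for ArPHR4 against EV (adjusted p = 0.019). Leaving out 1 library lost the ArPHR2 call in 7 of 9 cases, all but those without ArPHR2 replicate 2 or EV replicate 3 (limma adjusted p = 0.0171 to 0.117 over the 9), and the ArPHR4 call in 5 of 9, those without EV replicate 1 or 2 or any 1 ArPHR4 library (adjusted p = 0.0102 to 0.0578). In CPM this gene met the rule, with 12.8 ± 0.736 in ArPHR2, 22.1 ± 1.17 in ArPHR4 and 20.7 ± 0.906 in EV (SD, n = 3 each). In FPKM both constructs were below EV, with 7.49 ± 4.05 in ArPHR2, 9.17 ± 0.958 in ArPHR4 and 34.2 ± 14.6 in EV. The largest shortening was of the member ranked 26 in ArPHR2 (log2 shift -0.53 ± 0.12, SE, limma adjusted p = 0.018; lost without EV replicate 1 or 2 or ArPHR2 replicate 1 or 2, at up to 0.06) and of the member ranked 16 in ArPHR4 (-0.52 ± 0.056, adjusted p = 0.0011).

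**Figure D5:**
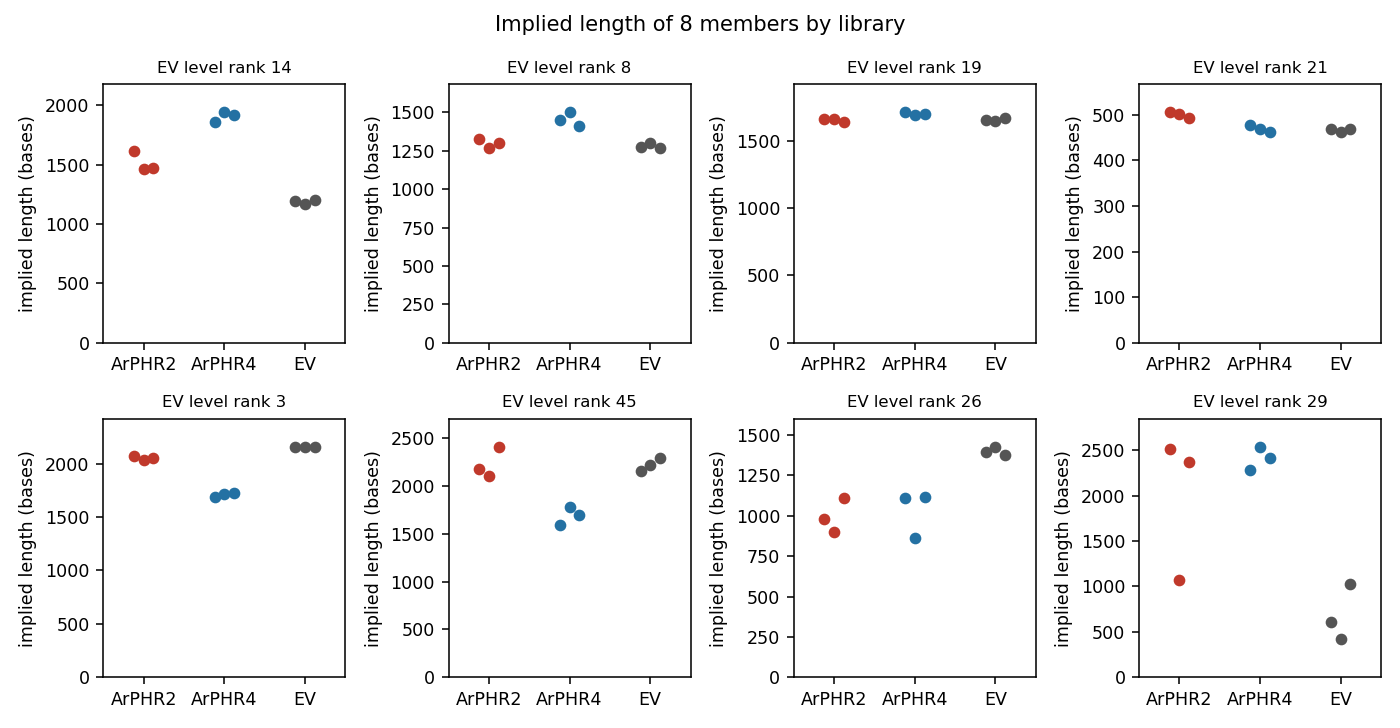
Points are the implied length of a gene in each library, in bases from count over FPKM, for the 6 members called between ArPHR2 and ArPHR4 (ranks 14, 8, 19, 21, 3 and 45 by EV level) and for the members with the largest shortening (rank 26) and lengthening (rank 29) in ArPHR2 against EV. In rank 29 the EV libraries at 422 to 1027 bases lie under all other libraries. In rank 14 all ArPHR4 libraries lie above the ArPHR2 libraries and these above EV, and in rank 45 the ArPHR4 libraries lie under the others.

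Read in FPKM, the decrease with ArPHR2 held in more members than the closeness of ArPHR4 to EV. All 66 had a lower mean FPKM in ArPHR2 than in EV, with ratios of 0.219 to 0.914 and a median of 0.554, and 5 of them missed the limit of 0.667. The ArPHR4/EV ratio of FPKM ran from 0.268 to 1.61 with a median of 0.960, and 19 members left the near-EV range, 8 downward and 11 upward. The ratio of ArPHR2 to ArPHR4 missed its limit in 10. Both units come from the same reads, so this is no second measurement.

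Many of the members belong to assembly components that hold further IDs, with which they can share reads. Within a component only the last number of the ID changes. Such neighbour IDs existed for 31 of the 66 members (47.0%), against 34.8% of all genes within the level limits. The share was 37.7% in the mirror set lower with ArPHR4, 32.9% in the set higher with ArPHR2 and 30.6% in the set higher with ArPHR4. No component held 2 members. In 25 of the 31 components the member had over 50% of the EV counts, and the median share was 92.6%. When all IDs of a component were summed, 29 of 31 totals were lower in ArPHR2 than in EV, 23 by the 1.5-fold of the rule, and 20 met all the ratio limits. The totals include the member, whose ratios the rule fixed, so nothing is read from these counts.

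The component neighbours themselves were called in both directions. They numbered 46, of which 25 had enough counts for the fit. For ArPHR2 against EV, 8 were called higher (32.0%) and 6 lower (24%), against the background of 22.6% higher and 21.7% lower. For ArPHR4 against EV 7 were called in each direction (28% each), against a background of 26.1% higher and 25.9% lower. For ArPHR2 against ArPHR4 2 were called higher (8%) and 6 lower (24%), against a background of 16.2% and 16.3%. These counts are too small to set the component neighbours apart from other genes.

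A pair of component neighbours stood at the extremes. The component neighbour with the largest rise had 24.7, 24.6 and 24.7 CPM in ArPHR2, 28.9, 29.2 and 28.8 CPM in ArPHR4, and 1.21, 1.57 and 1.76 CPM in EV, a log2 fold change of 3.95 for ArPHR2 against EV (edgeR adjusted p = 2.38e-21). Its component total was 27.7 CPM in ArPHR2, 34.1 CPM in ArPHR4 and 6.70 CPM in EV, so the total was higher in both overexpression groups while the member, 77.4% of the EV total, was lower in ArPHR2 and near EV in ArPHR4. The component neighbour with the largest fall shared a component with the fourth most abundant member. It had 2.55, 3.20 and 1.75 CPM in ArPHR2, 2.23, 2.45 and 3.68 CPM in ArPHR4, and 31.0, 24.2 and 28.1 CPM in EV, a log2 fold change of -3.54 for ArPHR2 against EV (edgeR adjusted p = 2.4e-17). That component neighbour was low in both overexpression groups, whereas the member beside it was near EV in ArPHR4.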

How the data were processed

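RNA of 9 leaf libraries was sequenced. Per the labels' protocols, total RNA came from a column kit and libraries from a SMARTER mRNA-Seq kit; aligner, counter, strand setting and build are not stated in these sources. Per the file headers, the authors deposited a count and an FPKM per assembled gene and library. The counts are whole numbers and may be rounded estimates. Overlapping and antisense transcripts may share reads.

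The rule was applied in Python 3.11.15 (pandas 2.3.3). Counts were fitted with edgeR 4.0.16 in R 4.3.3 (filter by group, TMM, quasi-likelihood test, 1 model over 9 libraries), with Benjamini-Hochberg adjustment over 27275 genes. Implied length was fitted with limma 3.58.1 on log2(count / FPKM), centred on gene-wise deviations, for genes with a mean count of at least 50, a mean FPKM of at least 2 and no 0. The alternatives were DESeq2 1.42.0, other scalings, filters and limits, a replicate block and leaving out each library. Both fits were also run on simulated data, and the outcome is not given here. Members, comparison sets, gene naming (2 IDs with the lowest ArPHR2/EV ratio and no other ID in the component; others by rank) and tests were chosen with earlier results of these data known. Planned gene lists could not be applied, since IDs carry no names. Between libraries within a group, squared count differences had a median of 1.99 to 3.07 times counting noise, against 8.13 to 16.7 times across groups, so none looked like a repeat deposit. Counting errors given cover counting only. No per-library column was left out.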

Additional observations from a re-analysis of the deposited data

How the results depend on the processing

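Which genes met the rule depended on the processing more than how many did. It gave 69 genes with TMM-scaled CPM (55 of the 66 members among them), 62 with upper-quartile scaling (44), 77 with ratios of FPKM (42) and 65 with group medians (50), and 57 to 76 with any 1 library left out (54 to 60). Tighter or wider limits gave 6 genes at a fold limit of 2, 28 at a near-EV limit of 1.1, 29 at an EV level of at least 20 CPM and 235 at one of at least 1 CPM.

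Leaving out 1 library gave 10709 to 12410 calls for ArPHR2 against EV (65 to 66 members), 12904 to 14564 for ArPHR4 against EV (15 to 18 members) and 7580 to 8805 for ArPHR2 against ArPHR4 (57 to 66 members). For implied length the ranges were 2456 to 3800 calls (10 to 15 members), 2280 to 3032 (12 to 16) and 118 to 235 (3 to 5). Scaling, DESeq2, the filter on low counts and the replicate block kept the counts of calls from the counts, over all genes and over members, within 1.5 times.

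Implied length moved more. Asking for a shift of at least 1.5-fold left 90, 171 and 8 genes in these 3 comparisons, with 1, 2 and 0 members. For the last comparison limma gave 0 such members at an unadjusted p under 0.05 as well, and no other tool was run on this measure. Centring on library medians gave 25 members for ArPHR2 against EV, 7953 genes and 32 members for ArPHR4 against EV, and 719 genes between the constructs. Of all calls, 78.6% were then longer for ArPHR2 against EV and 79.9% for ArPHR4 against EV, but 27.4% for ArPHR2 against ArPHR4. With the replicate block 95 genes and 1 member were called between the constructs. Of 12 called shifts of single members checked this way, 6 lost their call under at least 1 alternative, with no change of direction. The causes were not tested.

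Same-numbered libraries of different groups had deviations that correlated with r of -0.003 to 0.036, and differently numbered ones with r of -0.051 to 0.030. The ranges overlapped and the labels state no pairing, so the main fits did not pair the libraries. The replicate block above is the alternative. Depth limits the scarce members most, down to 20 counts in a library.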
